A study of Gallus gallus with 31 samples.

Results

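The libraries described here compare fat from around the heart with fat from the abdomen in male Ross chickens at day 42 after hatch, in a trial named Fall 12. The cardiac group held 4 libraries, numbered 1208 to 1211, and the abdominal group held 4, numbered 1199 to 1202. They were chosen by line, tissue and trial from the labels, and are 8 of the 31 libraries of the study. All birds were labelled as controls, and no treatment, genotype or transgene is named. The study's design text calls the birds Ross 708, a commercial broiler line grown for meat, kept in a single kind of house with free access to feed and 23 hours of light a day. The other libraries came from a second trial, Fall 13. They were 4 abdominal and 4 cardiac libraries of the same line, and 7 abdominal and 8 cardiac libraries of a line named Illinois. These were labelled day 42 as well, and no Illinois library came from Fall 12. Whether each library came from a bird of its own is not in the labels, and the p-values below reflect the spread from library to library, which may be technical. The library numbers of the depots do not interleave, so a difference between runs of library preparation and a difference between depots cannot be told apart.

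Birds store fat in depots that differ in origin and surroundings. The abdominal pad is the main energy store of a broiler, while cardiac fat lies on the surface of the heart, where it touches the covering layer of the heart, the coronary vessels, autonomic nerves and muscle. Fat cells, fibroblasts, vessel cells, nerves and immune cells all contribute RNA to a piece of such tissue. In whole tissue, more cells of a type and more RNA per cell cannot be told apart.

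Expression was given as FPKM, the sequenced fragments of a gene divided by the length of its transcript and by the total mapped in its library. The table analysed here held 564 genes, which follow each other by gene number and do not sample the genome at random. Of these, 403 reached 1 FPKM in at least 4 of the 8 libraries and were tested. Values of 0.001 are a floor of the table and not a measured level. Fold changes below are cardiac minus abdominal on the log2(FPKM + 1) scale, which understates the change of low genes, and a gene was called at an adjusted p under 0.05 in limma with Benjamini-Hochberg adjustment over all tested genes. Libraries of a depot resembled each other with correlations of 0.882 to 0.942 in abdominal and 0.824 to 0.907 in cardiac fat, against 0.781 to 0.870 between depots.

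Both depots carried the fat-cell marker FABP4, a fatty acid carrier that is among the most abundant transcripts of fat cells. FABP4 stood at 12658, 12105, 16747 and 13361 FPKM in abdominal libraries 1199 to 1202, and at 4865, 16461, 16592 and 16790 FPKM in cardiac libraries 1208 to 1211. Library 1208 was far below every other library. The share of FABP4 in the FPKM summed over the 564 genes was 28.3% ± 4.12 (SD, n = 4) in abdominal and 28.7% ± 9.87 (SD, n = 4) in cardiac fat, with 14.0% in library 1208 (exact permutation test, two-sided, p = 0.914). Genes outside the table are not in this sum, so it is not a share of the whole library. In this design the smallest p such a test can give is 0.0286.

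The heart muscle genes CASQ2, MYH7B and BMP10 stood at 18.1 FPKM or more in cardiac libraries 1208 and 1209. In the other libraries they were at most 0.502 FPKM. CASQ2, the calcium store protein of heart muscle, was at 0.001, 0.502, 0.0409 and 0.0386 FPKM in abdominal fat and at 77.2, 18.1, 0.194 and 0.0892 FPKM in cardiac fat. MYH7B, a muscle myosin heavy chain, was at most 0.0400 FPKM in abdominal fat and at 94.9, 28.3, 0.270 and 0.137 FPKM in the cardiac libraries. BMP10, a growth factor made by the atria, was named after its values were seen. It was at most 0.0335 FPKM in abdominal fat and at 747, 19.1, 0.365 and 0.0732 FPKM in cardiac fat. In libraries 1210 and 1211 CASQ2 lay within the abdominal range, while MYH7B and BMP10 lay above it but under 0.4 FPKM. The summed level of the 5 heart muscle markers in the table (CASQ2, GJA1, MYH7B, NEBL, SMYD1) ran from 56.3 to 85.1 FPKM in abdominal fat and was 355, 94.2, 53.2 and 54.0 FPKM in cardiac fat (exact permutation test, p = 0.714; adjusted p = 0.804 over 9 summed measures). In abdominal fat CASQ2 was at most 0.502 FPKM and MYH7B at most 0.0400 FPKM, so GJA1, NEBL and SMYD1 made up nearly all of this sum. The test of the sum therefore says little about CASQ2 and MYH7B. The 3 skeletal muscle markers (MYH1B, MYOD1, MYOG) summed to at most 0.154 FPKM in any library (exact p = 0.571). The part of the heart muscle signal in the results was not tested. For the named genes reported below, where leaving out libraries 1208 and 1209 ends a call, the value without them is given. For other called genes the loss is stated without a value.

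**Figure D1:**
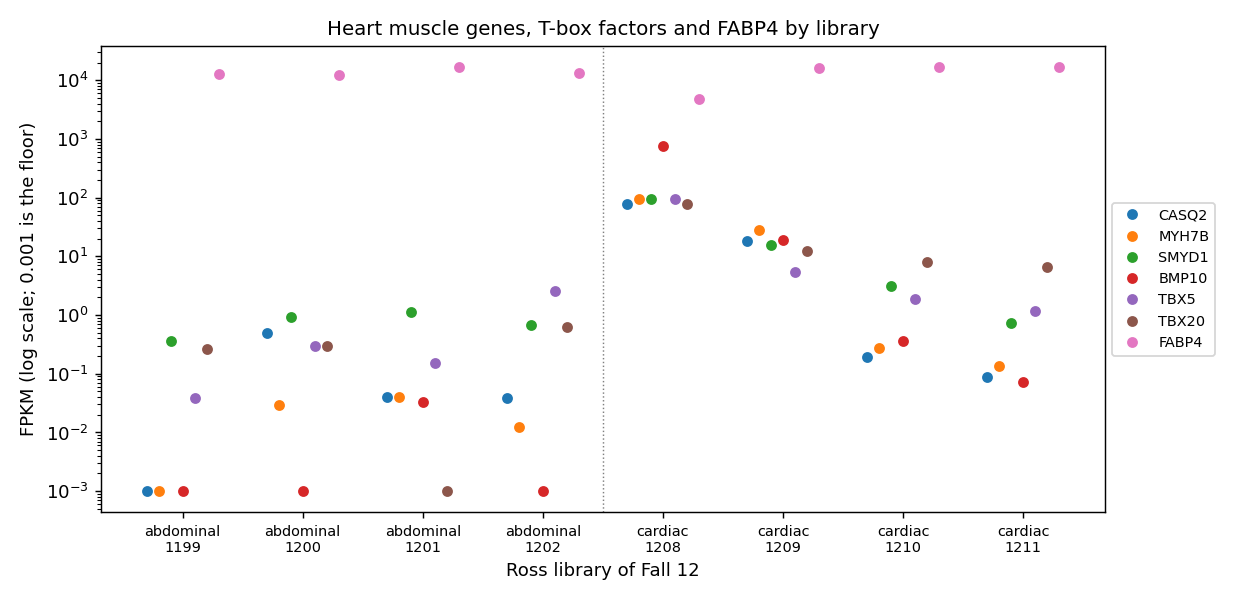
FPKM on a log axis for CASQ2, MYH7B, SMYD1, BMP10, TBX5, TBX20 and FABP4 in each of the 8 Fall 12 Ross libraries, with points shifted sideways by gene and the floor at 0.001. Cardiac library 1208 holds the highest muscle values (BMP10 at 747 FPKM) and the lowest FABP4 (4865 FPKM). Library 1209 is next in muscle values but is not low in FABP4, and TBX20 stays high in all 4 cardiac libraries.

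Among other cell types, the summed nerve and glia markers (CHRNA3, CHRNA5, CHRNA7, KCNA2, SS2) ran from 2.40 to 3.97 FPKM in abdominal and from 31.1 to 116 FPKM in cardiac fat, with no overlap (exact p = 0.0286, adjusted p = 0.0857 over the 9 measures). SS2 alone made up most of the sum in every cardiac library and was at the floor in abdominal fat. The smooth muscle and pericyte markers CALD1 and KCNMA1 summed to 171 ± 33.1 FPKM (SD, n = 4) in abdominal and 81.0 ± 28.4 FPKM (SD, n = 4) in cardiac fat (exact p = 0.0286, adjusted p = 0.0857). Endothelial markers summed to 486 and 380 FPKM on average (exact p = 0.171). The 12 immune markers summed to 94.2 to 200 FPKM in abdominal fat and 172 to 846 FPKM in cardiac fat (exact p = 0.0857), the highest being library 1210. The immune sum includes CXCL12, a chemokine of stromal cells. LMO2, the marker of red cells and thrombocytes in the table, averaged 163 and 123 FPKM (exact p = 0.171). It is also 1 of the 8 endothelial markers, so those measures are not independent. Of these summed measures, 3 were at the smallest p the test can give and 0 passed after adjustment, which would have needed at least 6 of the 9 measures at that smallest p, so the adjusted outcome was nearly fixed by the design.

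The depot comparison called 55 of 403 tested genes, or 13.6%, of which 35 were higher (8.68%) and 20 lower (4.96%) in cardiac fat. The median over all tested genes was a log2 fold change of 0.02. Counts of called members in the lists below are to be read beside these shares, and no list was tested as a set. The groups did not overlap for 30 of the 35 higher and 18 of the 20 lower genes, while over all tested genes the cardiac group lay wholly above in 11.9% and wholly below in 9.68%. These genes were called from the same libraries, so the lack of overlap is no further support for the calls. A fit on the 8 libraries alone called 39 genes, 33 of them among the 55. Without cardiac libraries 1208 and 1209, which leaves 2 cardiac libraries, 17 genes were called (14 higher and 3 lower), 13 of them among the 55. Of 40 named genes called between depots, 27 lost the call without those libraries, and those that kept it were TBX20, ID4, SS2, CHRNA3, IL1RL1, CKMT1A, UGT8, PI15, SDK1, FZD1, SFRP1, EGR1 and HMGA1. In the fit on the 8 libraries alone, the named genes that lost the call were ATP5A1, BMPR2, CALD1, CBX1, CHRNA5, FZD7, ID1, IGFBP4, PER2, SFRP1, SLIT3, SMYD1, UGT8 and WNT2B, with adjusted p from 0.0531 (CALD1 and UGT8) to 0.234 (CBX1).

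The clearest difference in developmental regulators was TBX20, a T-box transcription factor required for heart development. TBX20 stood at 0.269, 0.300, 0.001 and 0.633 FPKM in abdominal fat and at 78.0, 12.3, 8.06 and 6.61 FPKM in cardiac fat. Every cardiac library was above every abdominal library, and library 1208, with the most muscle transcripts, was the highest. The log2 fold change was 3.68 (SE 0.47, adjusted p = 5.83e-06 in limma), and without libraries 1208 and 1209 it was 2.70 (adjusted p = 2.5e-05). TBX5, a T-box factor of heart and forelimb named after its values were seen, was at 0.0386, 0.301, 0.154 and 2.55 FPKM in abdominal and 95.6, 5.45, 1.86 and 1.17 FPKM in cardiac fat, so that the groups overlapped (2.36, SE 0.84, adjusted p = 0.0603). TBX18, a factor of the epicardium and of mural cells, was at 8.99, 7.67, 5.62 and 0.979 FPKM in abdominal and at 10.1, 10.5, 13.9 and 10.7 FPKM in cardiac fat. Its groups did not overlap, but the difference of 1.07 (SE 0.43) missed the threshold (adjusted p = 0.104). It passed after upper quartile scaling (1.14, adjusted p = 0.0447) and after scaling to the sum without FABP4 (1.17, adjusted p = 0.0374), and without abdominal library 1202 the fold change was 0.56. As the one mesothelium and epicardium marker in the table, TBX18 had an exact p of 0.0286, 0.0857 after adjustment over the summed measures. Of the 7 heart and limb T-box factors in the table, 5 were tested and TBX20 was called. In the overlapping list of heart and anterior regulators, 4 of 5 were tested, with TBX20 again the called member.

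SMYD1, a methyltransferase of heart and skeletal muscle, stood at 0.359, 0.935, 1.14 and 0.677 FPKM in abdominal fat and 95.5, 15.6, 3.18 and 0.737 FPKM in cardiac fat. It rose by 2.57 (SE 0.78, adjusted p = 0.026), with overlapping groups. SMYD1 was the called member among the 3 tested heart muscle markers (GJA1, NEBL and SMYD1), whose median was -0.41. GJA1 and NEBL thus did not share its rise. Its value follows libraries 1208 and 1209: it was 1.49 (adjusted p = 0.158) without 1208, 2.34 (adjusted p = 0.0751) without 1209 and 0.62 (adjusted p = 0.746) without both. The SMYD1 call was also lost without abdominal library 1199 (2.44, adjusted p = 0.0646) or 1202 (2.55, adjusted p = 0.0545), and in the fit on the 8 libraries alone (adjusted p = 0.198).

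Receptors and regulators of Wnt signalling were higher in cardiac fat in 4 of 10 tested members, with 1 lower, and the median of the list was 0.34. Wnt proteins signal through Frizzled receptors and restrain the formation of fat cells in mammals. FZD1 was at 13.8, 6.47, 6.81 and 3.86 FPKM in abdominal and at 26.6, 14.0, 27.7 and 28.3 FPKM in cardiac fat. Libraries 1199 and 1209 nearly met, and the groups did not overlap. FZD1 rose by 1.59 (SE 0.39, adjusted p = 0.00651). FZD2 ranged from 3.17 to 5.93 FPKM in abdominal and 9.26 to 12.7 FPKM in cardiac fat and rose by 1.10 (SE 0.29, adjusted p = 0.00928). FZD7 ranged from 2.46 to 4.62 and from 5.38 to 7.94 FPKM and rose by 0.76 (SE 0.23, adjusted p = 0.026). SFRP1, a secreted protein that binds Wnt, was low in both depots. It was at 0.546, 0.335, 0.354 and 0.566 FPKM in abdominal fat and at 1.31, 1.81, 1.34 and 5.22 FPKM in cardiac fat, and rose by 1.11 (SE 0.20, adjusted p = 0.000415). These Frizzled genes and SFRP1 had every cardiac library above every abdominal one.

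The Wnt ligand WNT2B went the other way and varied widely among the abdominal libraries. WNT2B was at 19.5, 8.02, 3.60 and 0.960 FPKM in abdominal and at 1.29, 0.971, 1.11 and 2.67 FPKM in cardiac fat, and fell by 1.40 (SE 0.44, adjusted p = 0.0323). The groups overlapped through library 1202. The WNT2B call was lost without library 1199 (-0.83, adjusted p = 0.188), 1200 (-1.23, adjusted p = 0.109), 1208 (-1.37, adjusted p = 0.0697), 1209 (-1.29, adjusted p = 0.0832) or 1210 (-1.33, adjusted p = 0.0647). FZD7 was lost without library 1199 (0.73, adjusted p = 0.0643), 1201 (0.63, adjusted p = 0.103), 1208 (0.72, adjusted p = 0.0652) or 1211 (0.68, adjusted p = 0.0777), and after quantile normalization (0.44, adjusted p = 0.192). Without libraries 1208 and 1209, 2 Wnt members were called as higher and these were not: FZD2 (0.96, adjusted p = 0.132), FZD7 (0.75, adjusted p = 0.144) and WNT2B (-1.20, adjusted p = 0.256). In the fit on the 8 libraries alone the adjusted p was 0.0662 for SFRP1, 0.0598 for FZD7 and 0.212 for WNT2B.

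ID proteins are inhibitors of helix-loop-helix transcription factors and targets of BMP signals. ID4 was at 4.79, 4.44, 6.58 and 3.62 FPKM in abdominal and at 30.9, 19.9, 28.3 and 18.8 FPKM in cardiac fat. The groups were far apart, and ID4 rose by 2.11 (SE 0.33, adjusted p = 5.53e-05). ID1 was at 12.9, 8.20, 26.7 and 16.5 FPKM in abdominal and at 44.6, 38.4, 23.6 and 45.9 FPKM in cardiac fat, overlapping through libraries 1201 and 1210. ID1 rose by 1.27 (SE 0.41, adjusted p = 0.0357). ID3 ranged from 100 to 135 FPKM and from 90.9 to 140 FPKM, with a difference of 0.01 (adjusted p = 0.996). BMPR2, a receptor for BMP ligands, was at 24.3, 32.2, 30.4 and 43.2 FPKM in abdominal and 10.9, 12.3, 24.9 and 20.1 FPKM in cardiac fat and fell by 0.94 (SE 0.30, adjusted p = 0.0325). Libraries 1208 and 1209, which carried muscle transcripts, held its lowest values, and without both the difference was -0.49 (adjusted p = 0.508). Of 11 tested members of the BMP and ID list, 2 were called as higher and 1 as lower, with a median of 0.01. Over all tested genes these shares were 8.68% and 4.96%. Without libraries 1208 and 1209 ID1 was at 1.11 (adjusted p = 0.258). ID1 also lost its call without library 1199 (adjusted p = 0.0883), 1200 (0.146), 1202 (0.0564), 1208 (0.0951), 1209 (0.074) or 1211 (0.086), and BMPR2 without library 1200 (0.0719), 1201 (0.0593), 1202 (0.124), 1208 (0.126) or 1209 (0.103).

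**Figure D2:**
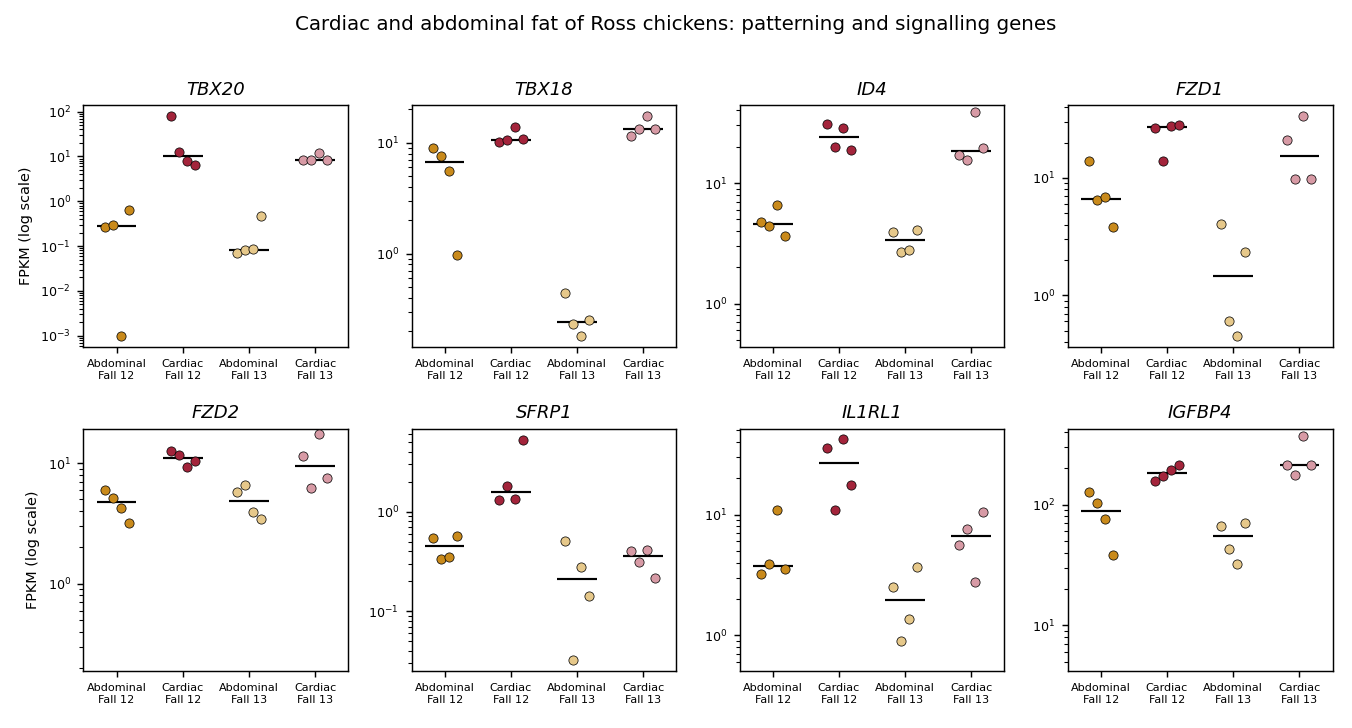
FPKM on log axes of TBX20, TBX18, ID4, FZD1, FZD2, SFRP1, IL1RL1 and IGFBP4 in abdominal and cardiac fat of Ross birds in Fall 12 and Fall 13, with 1 point per library, 4 libraries a group, and a line at the group median. In Fall 12 cardiac ID4 lies at 18.8 to 30.9 FPKM against 3.62 to 6.58 FPKM in abdominal fat. Abdominal TBX18 of Fall 12 lies above that of Fall 13, with library 1202 (0.979 FPKM) the nearest to it.

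Nicotinic receptor subunits and a somatostatin family gene, taken here as nerve markers, were higher in cardiac fat. SS2, which the RefSeq gene table lists under the symbol SST7, is a somatostatin family gene. SS2 was listed at 0.001 FPKM in all 4 abdominal libraries and stood at 24.1, 95.6, 40.7 and 70.8 FPKM in cardiac fat. Because the whole abdominal group was at the floor, no fold is given. The fitted difference passed the test (adjusted p = 4e-05). CHRNA3 encodes a subunit of the nicotinic acetylcholine receptor of autonomic ganglia. It was at 0.117, 0.001, 0.117 and 0.276 FPKM in abdominal and 2.30, 9.999, 5.95 and 10.9 FPKM in cardiac fat, and rose by 2.72 (SE 0.42, adjusted p = 4.79e-05). CHRNA5, another subunit of such receptors, was at 0.871, 1.49, 1.12 and 2.54 FPKM and at 3.15, 4.48, 2.604 and 4.07 FPKM, and rose by 0.89 (SE 0.26, adjusted p = 0.0193).

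In these nerve genes library 1208 was the lowest cardiac library for SS2 and CHRNA3, the reverse of its place for muscle genes. CHRNA7, a further nicotinic subunit named after its values were seen, was at the floor in all abdominal libraries and in cardiac libraries 1208 and 1210, and at 2.77 and 3.83 FPKM in libraries 1209 and 1211. NSG1, a neuronal vesicle protein also named after its values were seen, reached at most 0.162 FPKM in abdominal fat and 0.001, 6.26, 4.15 and 7.54 FPKM in cardiac fat. Of 5 nerve and glia markers, 4 were tested and 3 were called as higher, with a median of 1.81 that includes SS2 at its fitted value. KCNA2 was tested and not called. Without libraries 1208 and 1209, 2 of them were called and CHRNA5 was at 0.81 (adjusted p = 0.147). CHRNA5 lost its call without library 1199 (0.77, adjusted p = 0.0715), 1201 (0.83, adjusted p = 0.0583) or 1209 (0.80, adjusted p = 0.0649), after quantile normalization (0.55, adjusted p = 0.102) and in the fit on the 8 libraries alone (adjusted p = 0.063).

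Other genes with low or floor levels in abdominal fat stood beside them. CKMT1A, a mitochondrial creatine kinase, was at 0.145, 0.001, 0.001 and 0.137 FPKM in abdominal and 1.01, 10.2, 3.78 and 6.99 FPKM in cardiac fat, and rose by 2.34 (SE 0.36, adjusted p = 4.79e-05). UGT8, the enzyme that makes the galactolipid of myelin, was at 0.319 to 0.723 FPKM in abdominal and at 1.27, 4.55, 6.31 and 21.1 FPKM in cardiac fat. UGT8 rose by 2.20 (SE 0.38, adjusted p = 0.000222; adjusted p = 0.0531 in the fit on the 8 libraries alone). Both were lowest in library 1208 among the cardiac libraries, as SS2 and CHRNA3 were. PI15, a secreted peptidase inhibitor, was at 0.251 to 1.41 FPKM in abdominal and at 1.51, 3.59, 9.34 and 6.71 FPKM in cardiac fat and rose by 1.70 (SE 0.42, adjusted p = 0.00713). SDK1, a cell adhesion protein that guides synapse layers in the retina, was at 1.18, 1.496, 1.74 and 1.66 FPKM in abdominal and at 24.6, 4.96, 5.08 and 6.52 FPKM in cardiac fat. Unlike the genes above, SDK1 was highest in library 1208, and it rose by 1.87 (SE 0.39, adjusted p = 0.0014).

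**Figure D3:**
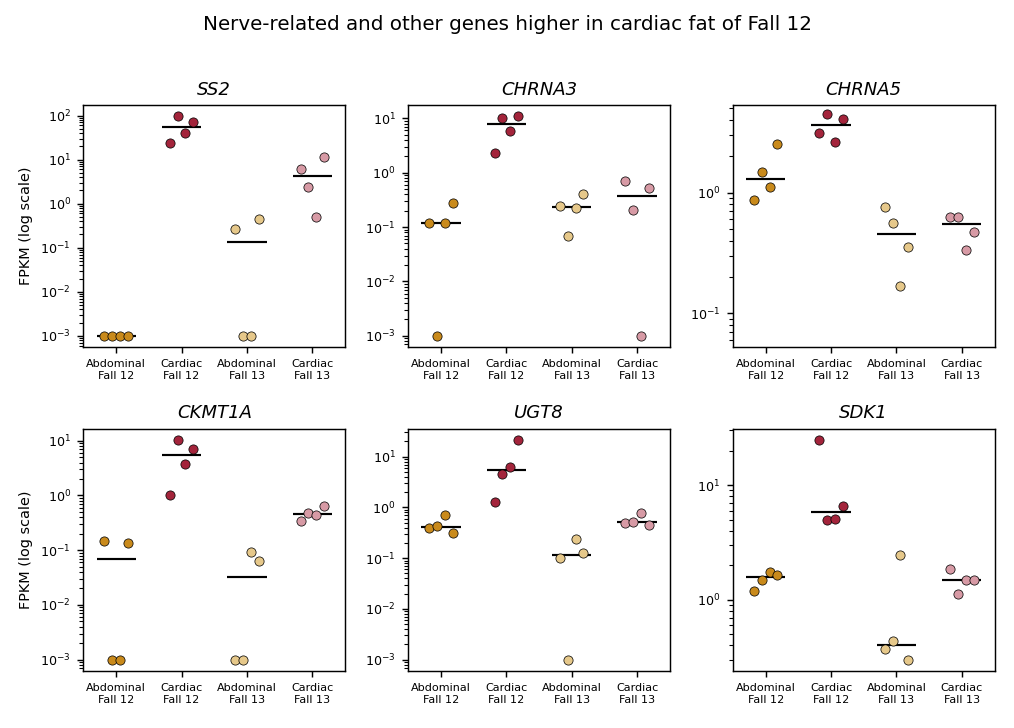
FPKM on log axes of nerve-related and other genes that were higher in cardiac fat of Fall 12, shown for abdominal and cardiac fat of both Ross trials, with 1 point per library, 4 libraries a group, a line at the group median and the floor at 0.001. SS2 reaches 24.1 to 95.6 FPKM in cardiac fat of Fall 12 and 0.507 to 11.3 FPKM in that of Fall 13.

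Axon guidance genes were called as higher in 2 of 6 tested members, against 8.68% of all tested genes, with a median of 0.26 over the list. SEMA3F, a secreted semaphorin that repels axons, was at 6.28, 5.83, 10.2 and 5.72 FPKM in abdominal and at 21.4, 12.9, 23.4 and 11.4 FPKM in cardiac fat, without overlap, and rose by 1.17 (SE 0.31, adjusted p = 0.00975). SLIT3, a secreted ligand of Robo receptors, was at 10.01, 10.5, 6.88 and 4.15 FPKM and at 20.5, 12.3, 15.6 and 15.5 FPKM, and rose by 0.98 (SE 0.32, adjusted p = 0.0364). Without libraries 1208 and 1209 SEMA3F was at 1.16 (adjusted p = 0.0769) and SLIT3 at 0.97 (adjusted p = 0.175). SLIT3 also lost its call without library 1201 (0.95, adjusted p = 0.0776), 1202 (0.74, adjusted p = 0.157), 1208 (0.86, adjusted p = 0.112), 1210 (0.99, adjusted p = 0.0576) or 1211 (0.99, adjusted p = 0.0629), and after quantile normalization (0.84, adjusted p = 0.0727).

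The called gene among the immune markers was IL1RL1, the receptor of interleukin 33. IL1RL1 was at 3.24, 3.93, 10.95 and 3.53 FPKM in abdominal and at 35.7, 10.98, 42.0 and 17.4 FPKM in cardiac fat. The groups did not overlap, but abdominal library 1201 and cardiac library 1209 were nearly equal. IL1RL1 rose by 2.07 (SE 0.42, adjusted p = 0.00101). IGJ, the joining chain of secreted antibodies, varied most: 2.20, 5.29, 31.4 and 4.15 FPKM in abdominal fat and 4.84, 42.1, 579 and 83.7 FPKM in cardiac fat. Its groups overlapped, and the difference of 2.96 (SE 1.09) missed the threshold (adjusted p = 0.0721). Of 12 immune markers, 8 were tested and 1, IL1RL1, was called, with a median of 0.57. That share is near the 13.6% called over all tested genes. IGFBP4, a binding protein of insulin-like growth factors, was at 127, 102, 76.5 and 38.6 FPKM in abdominal and 157, 174, 192 and 211 FPKM in cardiac fat and rose by 1.202 (SE 0.38, adjusted p = 0.0307), the called member of the insulin and growth hormone list (4 tested, median 0.04). Without library 1202, the lowest, IGFBP4 was at 0.86 (adjusted p = 0.157), and without libraries 1208 and 1209 at 1.34 (adjusted p = 0.102). Its call was also lost without library 1201 (adjusted p = 0.0639), 1209 (0.0602), 1210 (0.0562) or 1211 (0.0695).

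In the short lists for mitochondria, redox balance and ribosomes, the called genes were ATP5A1, CKMT1A, PARK7 and RPL35. PARK7, a protein that protects against oxidative stress, was at 35.2, 35.2, 34.2 and 31.3 FPKM in abdominal and at 95.3, 74.5, 49.7 and 58.1 FPKM in cardiac fat, and rose by 0.97 (SE 0.19, adjusted p = 0.000787). ATP5A1, a subunit of ATP synthase, was at 81.1 to 88.4 FPKM in abdominal and at 407, 208, 127 and 151 FPKM in cardiac fat, and rose by 1.24 (SE 0.38, adjusted p = 0.0276). Both were highest in libraries 1208 and 1209, which carried the muscle transcripts. Without those libraries PARK7 was at 0.65 (adjusted p = 0.0723) and ATP5A1 at 0.71 (adjusted p = 0.437). The ATP5A1 call was also lost without library 1199 (adjusted p = 0.0526), 1200 (0.065), 1201 (0.0578), 1202 (0.0564), 1208 (0.141) or 1209 (0.0646). RPL35, a ribosomal protein of the large subunit, was at 1088, 708, 1298 and 898 FPKM and at 1930, 2369, 2179 and 2085 FPKM, and rose by 1.13 (SE 0.27, adjusted p = 0.00554), with the same 1.13 but an adjusted p of 0.0636 without libraries 1208 and 1209. Both RPL35 and ATP5A1 can share fragments with close copies. The counts were 2 higher of 5 tested mitochondrial genes (median 0.69), 1 of 4 redox genes (median 0.81) and 1 of 7 ribosomal proteins (median 0.00). Over all tested genes 8.68% were higher, so a single call in such short lists says little about the list.

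Genes lower in cardiac fat included immediate early and stress-response genes, of which 4 of 7 tested members fell and 0 rose, with a median of -0.98. EGR1, a transcription factor induced within minutes by many stimuli, was at 307, 313, 150 and 646 FPKM in abdominal and at 77.5, 68.2, 62.5 and 78.8 FPKM in cardiac fat. The cardiac libraries lay close together and the abdominal ones spread widely above them. EGR1 fell by 2.11 (SE 0.39, adjusted p = 0.000415). IFRD1, a regulator of stress and differentiation programmes, was at 188, 410, 601.4 and 460 FPKM and at 39.7, 65.0, 144 and 158 FPKM, and fell by 2.11 (SE 0.42, adjusted p = 0.000859). SGK1, a kinase induced by glucocorticoids and serum, was at 180, 141, 265 and 242 FPKM in abdominal and at 83.8, 84.0, 127 and 110 FPKM in cardiac fat, and fell by 1.00 (SE 0.29, adjusted p = 0.0212). The cardiac values of IFRD1 and SGK1 were lowest in libraries 1208 and 1209, and without those libraries, with 2 cardiac libraries left, IFRD1 was at -1.34 (adjusted p = 0.0853) and SGK1 at -0.76 (adjusted p = 0.274). SGK1 also lost its call without library 1201 (-0.87, adjusted p = 0.0753), 1202 (-0.92, adjusted p = 0.0611), 1208 (-0.92, adjusted p = 0.0646) or 1209 (-0.92, adjusted p = 0.0649).

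Of 7 tested clock genes, which drive the daily rhythm of cells, 2 were called as lower, against 4.96% of all tested genes, and the median was -0.46. CLOCK, a core activator, was at 19.4, 16.2, 16.2 and 22.0 FPKM in abdominal and 5.37, 4.28, 10.6 and 12.3 FPKM in cardiac fat, and fell by 1.18 (SE 0.27, adjusted p = 0.00398). PER2, a repressor in the same loop and also an immediate early gene, was at 30.4, 37.2, 38.2 and 47.3 FPKM and at 10.9, 16.3, 29.8 and 22.9 FPKM, and fell by 0.98 (SE 0.29, adjusted p = 0.0243). For both, the groups did not overlap and libraries 1208 and 1209 were the lowest. Without them CLOCK was at -0.64 (adjusted p = 0.241) and PER2 at -0.52 (adjusted p = 0.438). PER2 also lost its call without library 1201 (adjusted p = 0.0513), 1202 (0.0757), 1208 (0.114) or 1209 (0.0653). The time of day of tissue collection is not in the labels.

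HMGA1, a chromatin protein that bends DNA at AT-rich stretches, showed the widest gap among the lower genes measured in every library. HMGA1 was at 54.6, 57.7, 49.9 and 49.1 FPKM in abdominal and at 6.94, 8.88, 9.86 and 6.01 FPKM in cardiac fat, tight within each depot, and fell by 2.61 (SE 0.50, adjusted p = 0.000637). HIPK2, a nuclear kinase, was at 94.9, 89.9, 141 and 135 FPKM and at 24.7, 28.4, 57.0 and 47.9 FPKM, and fell by 1.57 (SE 0.32, adjusted p = 0.00129). PPP3CA, the catalytic subunit of calcineurin, was at 66.4 to 85.4 FPKM in abdominal and at 22.0, 22.1, 38.7 and 56.4 FPKM in cardiac fat and fell by 1.21 (SE 0.30, adjusted p = 0.00662). Cardiac values of HIPK2 and PPP3CA were again lowest in libraries 1208 and 1209. Without them HIPK2 was at -1.10 (adjusted p = 0.0913) and PPP3CA at -0.69 (adjusted p = 0.276).

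Receptors for catecholamines and adenosine control the release of stored fat. In a list of such receptors and of signalling regulators, 2 of 7 tested members were lower (median -0.52), against 4.96% of all tested genes. The called members were the receptors ADRA1B and ADORA1. The others tested, GNAI3, RGS19, RGS2, RGS3 and RGS4, are not receptors and were not called. ADRA1B, an alpha-1 adrenergic receptor, was at 7.13, 7.99, 12.4 and 16.3 FPKM in abdominal and at 0.358, 3.48, 3.90 and 2.42 FPKM in cardiac fat, and fell by 1.84 (SE 0.41, adjusted p = 0.00296). ADORA1, the adenosine A1 receptor that restrains lipolysis in mammals, was at 37.7, 16.7, 25.0 and 25.8 FPKM and at 5.56, 7.37, 12.1 and 11.7 FPKM, and fell by 1.43 (SE 0.40, adjusted p = 0.0148). For both receptors every cardiac library was below every abdominal library. Without libraries 1208 and 1209 ADRA1B was at -1.48 (adjusted p = 0.0686) and ADORA1 at -1.03 (adjusted p = 0.265). ADORA1 also lost its call without library 1199 (-1.24, adjusted p = 0.0606) or 1208 (-1.24, adjusted p = 0.0646).

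The fat-cell list gave 1 called gene of 9 tested, near the 13.6% called over all tested genes, with a median of -0.47. DBI, a carrier of acyl-CoA, was at 749, 646, 630 and 707 FPKM in abdominal and at 391, 291, 218 and 485 FPKM in cardiac fat, without overlap, and fell by 1.04 (SE 0.36) with an adjusted p of 0.0493. DBI lost its call in 16 of 23 alternatives, including without libraries 1208 and 1209 (-1.07, adjusted p = 0.184), and each removal of a single library except 1211 (adjusted p of 0.0646 to 0.154). PPARG, the master regulator of fat cells, was at 34.9, 56.4, 48.9 and 50.6 FPKM in abdominal and 9.46, 27.8, 48.8 and 31.4 FPKM in cardiac fat. Library 1208 was lowest and library 1210 reached the abdominal level. The difference in PPARG was -0.86 (SE 0.38, adjusted p = 0.141), and it passed without library 1210 (-1.17, adjusted p = 0.0402). FABP4 differed by -0.15 (SE 0.48, adjusted p = 0.858) and by 0.29 without library 1208.

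**Figure D4:**
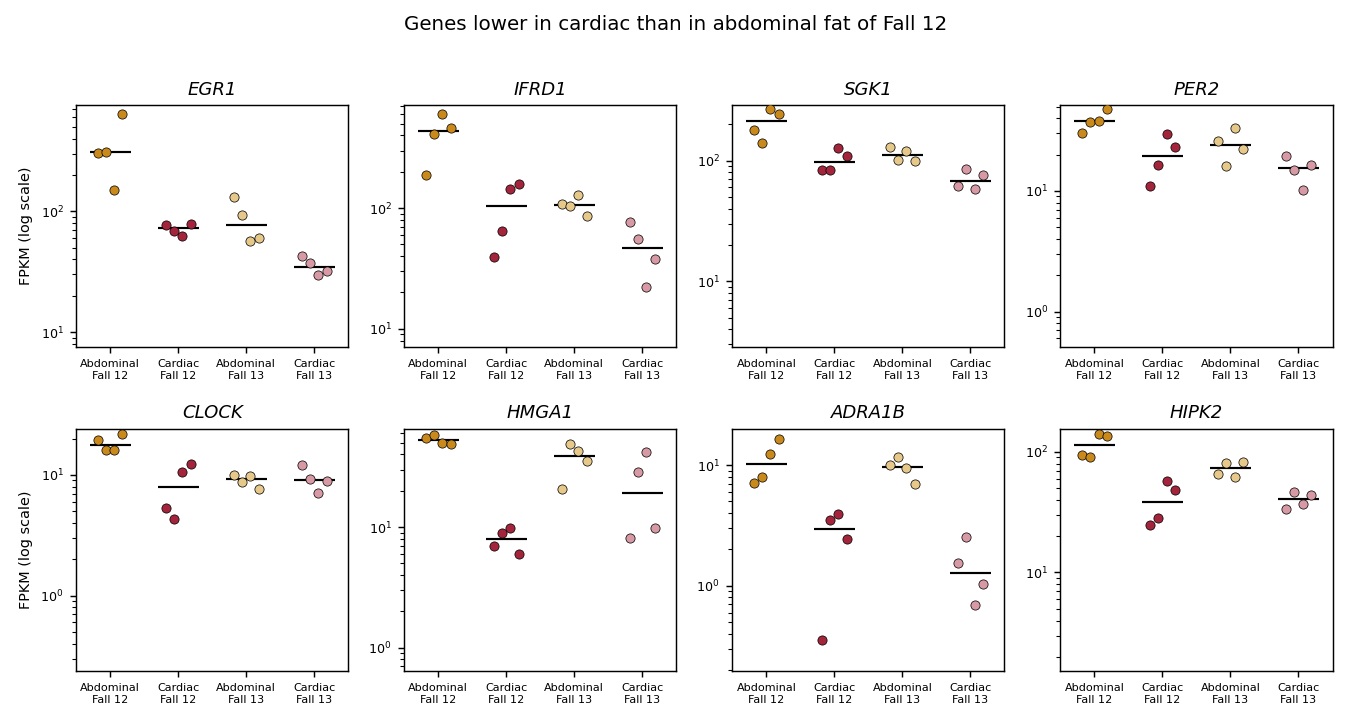
FPKM on log axes of EGR1, IFRD1, SGK1, PER2, CLOCK, HMGA1, ADRA1B and HIPK2 in abdominal and cardiac fat of both Ross trials, with 1 point per library, 4 libraries a group, and a line at the group median. In Fall 12 the cardiac points lie below the abdominal points in all panels, with HMGA1 at 6.01 to 9.86 FPKM against 49.1 to 57.7 FPKM.

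Skeleton genes split, with 1 higher and 1 lower of 6 tested (median -0.02). CALD1, an actin-binding protein of smooth muscle and other contractile cells, was at 130, 196, 130 and 174 FPKM in abdominal and at 38.1, 71.5, 106 and 75.6 FPKM in cardiac fat and fell by 1.17 (SE 0.28, adjusted p = 0.00554). It was 1 called member of the 2 smooth muscle and pericyte markers tested. CALD1 was at -0.79 without libraries 1208 and 1209 (adjusted p = 0.151) and had an adjusted p of 0.0531 in the fit on the 8 libraries alone. SPTAN1, the alpha chain of non-erythroid spectrin, was at 39.2 to 52.8 FPKM in abdominal and at 104, 78.996, 93.5 and 112 FPKM in cardiac fat and rose by 1.06 (SE 0.33, adjusted p = 0.026). SPTAN1 was at 1.15 (adjusted p = 0.103) without libraries 1208 and 1209, and also lost its call without library 1199 (1.07, adjusted p = 0.0526), 1201 (0.99, adjusted p = 0.074), 1202 (1.06, adjusted p = 0.0564), 1208 (1.03, adjusted p = 0.0646) or 1211 (0.99, adjusted p = 0.0654).

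No gene was called in several lists. These were the matrix and fibroblast list (12 tested, median -0.10), endothelium (8 tested, median -0.43), limb and mesenchyme patterning factors (3 tested, median 0.39), HOX genes (1 tested, -0.38), cell division (10 tested, median 0.40), retinoid enzymes and receptors (2 tested, median -1.26) and RNA binding and splicing (7 tested, median -0.33). LMO2 on its own stood at -0.48. In the endothelial list, SOX18, a factor of vessel identity, ranged from 47.7 to 105 FPKM in abdominal and from 22.9 to 49.6 FPKM in cardiac fat (-0.93, SE 0.38, adjusted p = 0.114). ERG, another endothelial factor, lay at 24.0 to 35.6 FPKM and at 14.4 to 20.3 FPKM without overlap (-0.70, SE 0.30, adjusted p = 0.132). FBLN1, a matrix glycoprotein, was at 34.0, 37.4, 23.4 and 8.98 FPKM in abdominal and at 46.3, 38.4, 67.4 and 59.6 FPKM in cardiac fat (1.14, SE 0.44, adjusted p = 0.0854). These examples do not stand for their lists. In the matrix list FBN2 (0.68) and CTGF (0.56) were positive like FBLN1, and THBS1 (-0.89), SPARC (-0.60) and FBN1 (-0.51) were negative. Among endothelial genes CDH5 was at -0.17 and EDNRA at 0.41.

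Further called genes fell outside the rule for named genes and are listed after their values were seen. Among those that rose, by 0.76 (BID) to 1.19 (FKBP1B), were BID, MRPL23, FECH, PCBD2, FUT11, TNFRSF11B, ARVCF, SHISA2 and FKBP1B. FECH, the last enzyme of haem synthesis, was at 3.09 to 4.95 FPKM in abdominal and at 6.80 to 8.53 FPKM in cardiac fat. TNFRSF11B, the decoy receptor osteoprotegerin, was at 1.05 to 1.71 and at 3.52 to 4.90 FPKM. FKBP1B, a regulator of calcium release channels in muscle, was at 17.5 to 31.9 FPKM in abdominal fat and at 90.8, 53.3, 32.6 and 38.8 FPKM in cardiac fat, highest in libraries 1208 and 1209. The 4 others that fell were RNF111, MTFR1, MEOX2 and STX2, by 0.84 to 1.10. MEOX2, a homeobox factor of muscle and vessels, was at 116 to 133 FPKM in abdominal and at 42.6, 58.5, 65.4 and 92.5 FPKM in cardiac fat. None of the genes in this paragraph kept its call without libraries 1208 and 1209. The 13 calls kept there were all of genes named by the rule.

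Some calls rested on floor values. Among the tested genes, 31 had a Fall 12 library at 0.001, 7 of them called, and in 2 of these (SS2 and HDAC1) a whole group was at the floor. HDAC1, a histone deacetylase used by nearly every cell, was at 12.2, 10.8, 14.0 and 10.2 FPKM in abdominal fat and listed at 0.001 in all 4 cardiac libraries (adjusted p = 0.00721; 0.0723 without libraries 1208 and 1209). The same split stood in Fall 13, with 7.11 to 11.9 FPKM in abdominal fat and 0.001 in all 4 cardiac libraries. In Illinois birds 3 of 7 abdominal and 4 of 8 cardiac libraries were at 0.001 and the rest at 6.91 to 15.6 FPKM. No level of HDAC1 between these was listed, so no fold is given and 0.001 is not read as absence. CBX1, a heterochromatin protein, was at 40.6, 0.001, 34.4 and 0.001 FPKM in abdominal and 34.0, 42.4, 40.4 and 45.7 FPKM in cardiac fat. Its call (2.74, SE 0.74, adjusted p = 0.0124) was lost when the floor values were taken as missing (0.11, adjusted p = 0.832), without library 1200 or 1202 (1.86 each, adjusted p = 0.0859 and 0.0757) and without libraries 1208 and 1209 (2.83, adjusted p = 0.0835). ERAL1, named after its values were seen, was at 5.86, 0.001, 5.17 and 5.60 FPKM in abdominal and 8.51 to 11.5 FPKM in cardiac fat. It was called at 1.37 (SE 0.36, adjusted p = 0.00969), a fold that rests in part on the floor value of library 1200. ERAL1 was not called without libraries 1208 and 1209. RPL39 was at 3547 and 3169 FPKM in abdominal libraries 1199 and 1200 and at the floor in the other 6.

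Within the abdominal group, library 1202 stood apart in patterning and matrix genes, all named after their values were seen except TBX18 and PITX1. PITX1, a hindlimb homeobox factor that did not pass the filter, was at 1.35, 0.562, 0.193 and 13.2 FPKM in abdominal fat and at most 0.139 FPKM in cardiac fat. NKX3-2, a homeobox factor of gut and skeleton, was at 6.33, 11.9, 11.9 and 0.553 FPKM in abdominal fat, and BARX1, a factor of stomach mesenchyme, at 8.97, 3.30, 2.96 and 0.001 FPKM. Library 1202 was thus high in PITX1 and low in the others. It was also the lowest of its group for SPARC, a matrix protein, with 699 FPKM against 2383 to 3503 FPKM, and for PRRX1, a mesenchymal factor, with 11.6 FPKM against 26.8 to 68.0 FPKM. In Fall 13 all 4 abdominal libraries had PITX1 at 4.63 to 10.5 FPKM.

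The same contrast in the libraries of Fall 13 called 67 genes (16.6%), 51 higher (12.7%) and 16 lower (3.97%), in the same fit. Of the 35 genes higher in Fall 12, 16 were called higher in Fall 13 too, which is 45.7% of the first list and 31.4% of the second. Of the 20 lower genes, 6 were called lower in both, 30.0% and 37.5% of the lists. The sign was shared by 33 of the 35 and 18 of the 20, and 0 were called in opposite directions. The share of all tested genes with the same sign in both trials was not counted, so these counts lack a background. The median log2 fold change over all tested genes in Fall 13 was 0.18. TBX20 (3.13), ID4 (2.37), FZD1 (2.78), IGFBP4 (2.18), RPL35 (1.39), ADRA1B (-2.13), EGR1 (-1.18), IFRD1 (-1.27), and ADORA1 (-1.14) were among those called in Fall 13, where the log2 fold changes stand in parentheses. Other named genes called in Fall 12 were not called in Fall 13. They included CKMT1A (0.50), UGT8 (0.48), SDK1 (0.52), PI15 (0.31) and CHRNA5 (0.07). CLOCK (0.03), CALD1 (-0.07), BMPR2 (-0.16), SMYD1 (-0.27) and WNT2B (0.37) were also not called. The adjusted p of these genes in limma ran from 0.392 (CKMT1A) to 0.963 (CLOCK). The Fall 13 cardiac libraries had at most 10.9 FPKM of TBX5 and 3.20 FPKM of BMP10. HMGA1 was at 20.7 to 49.2 FPKM in abdominal and at 8.16, 28.5, 42.2 and 9.90 FPKM in cardiac fat of Fall 13 (-0.94, adjusted p = 0.215). Its difference between trials, -1.67, had an adjusted p of 0.246.

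**Figure D5:**
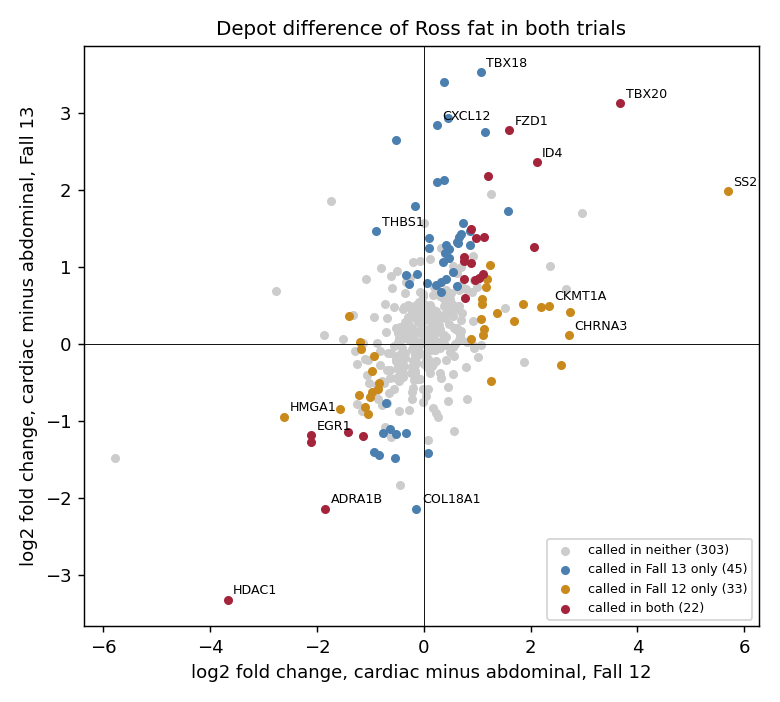
The log2 fold change between depots in Fall 12 against that in Fall 13 for 403 tested genes, with 1 point per gene coloured by the trial in which it was called. A total of 22 genes are called in both trials, 33 in Fall 12 alone, 45 in Fall 13 alone and 303 in neither.

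The difference of the depot effects between trials was called for 5 genes (1.24%), 2 with a larger value in Fall 12 (0.496%) and 3 with a smaller one (0.744%). A total of 54 genes had an unadjusted p under 0.05. CXCL12, a chemokine of stromal cells, was at 67.9, 79.3, 40.1 and 30.0 FPKM in abdominal and at 77.3, 54.3, 62.8 and 50.5 FPKM in cardiac fat of Fall 12. In Fall 13 CXCL12 was at 2.34 to 5.17 FPKM in abdominal and 24.0 to 44.6 FPKM in cardiac fat. Its depot effect was 0.25 in Fall 12 and 2.85 in Fall 13, a difference of -2.59 (SE 0.52, adjusted p = 0.0119). TBX18 in abdominal fat was at 0.182 to 0.444 FPKM in Fall 13, below all abdominal libraries of Fall 12, while cardiac fat had 11.6 to 17.3 FPKM. The TBX18 difference between trials was -2.46 (SE 0.61, adjusted p = 0.0401). THBS1, the matrix protein thrombospondin, was at 68.0, 67.3, 72.0 and 43.8 FPKM in abdominal and 23.3, 27.6, 47.4 and 37.8 FPKM in cardiac fat of Fall 12, and at 2.18 to 5.10 and 5.29 to 32.4 FPKM in Fall 13 (difference -2.36, SE 0.57, adjusted p = 0.0379). For these 3 genes the wider gap between trials lay in abdominal fat.

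COL18A1 and CHRNA3 differed the other way. COL18A1, a basement membrane collagen, was at 28.0, 22.8, 19.0 and 68.2 FPKM in abdominal and 23.1, 24.5, 25.6 and 39.0 FPKM in cardiac fat of Fall 12, and at 27.6 to 62.4 and 6.57 to 10.8 FPKM in Fall 13 (difference 2.002, SE 0.52, adjusted p = 0.0461). CHRNA3 in cardiac fat of Fall 13 was at 0.697, 0.211, 0.001 and 0.526 FPKM, near its abdominal level, so that its depot effect was 2.72 in Fall 12 and 0.11 in Fall 13 (difference 2.604, SE 0.59, adjusted p = 0.0285). SS2 in cardiac fat of Fall 13 was at 6.13, 2.43, 0.507 and 11.3 FPKM, and the difference of its depot effects between trials had an adjusted p of 0.114. These calls were sensitive to single libraries. Removing 1 of the 16 Ross libraries at a time gave 0 to 9 calls. The count was 0 without 1200, 1 without each of 1199, 1201, 1209, 1211, 1197, 1198 and 1206, 2 without 1204, 3 without 1205 or 1207, 8 without 1208 and 9 without 1202.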

How the data were processed

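Fat was flash frozen and libraries were made from polyA RNA with an Illumina stranded kit, per the labels. The submitters' processing notes name Bowtie, TopHat and Cufflinks as the tools of the authors. The sources used here give no version, build or annotation. The unit of the deposited values was taken to be FPKM because Cufflinks is named and the values lie in its range, as the headers name none. FPKM divides by the library's own total, so an abundant gene such as FABP4 lowers all others. Of 567 lines, 1 was incomplete and 2 were exact duplicates. The number of unmatched columns was 0. Of 564 gene numbers, 562 were found in a RefSeq gene table (assembly GRCg7b, names only).

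Total depth is unknown. Low values were taken as steps of 1 fragment, about 0.05 FPKM in 38 low genes at median depth. Steps and relative depths were chosen to bring these values near whole numbers. With that choice 83.3% of 442 values came within 0.05 fragments of a whole number, so this share is no separate check. Relative depths so found were 0.643, 1.15, 0.645 and 0.680 for abdominal libraries 1199 to 1202 and 1.02, 0.976, 0.950 and 0.893 for cardiac libraries 1208 to 1211, and the value for 1200 may be wrong by a whole factor. Cardiac libraries were thus deeper than 3 of the 4 abdominal ones, which makes their low values more precise.

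Values were analysed as log2(FPKM + 1), a log2 scale computed here from the deposited values, with limma 3.58.1 and statmod 1.5.0 in R 4.3.3. The model held 6 group means fitted to all 31 libraries with a single common spread, moderated robustly and with a mean-variance trend. Tests were two-sided, and adjusted p-values are Benjamini-Hochberg values from limma. A spread shared with other groups is widened for genes with floor values there, as in ID3. Summed levels were compared by an exact permutation test of 70 arrangements in scipy 1.17.1. The fit was tested on simulated data with a single spread per gene in all groups and no library set apart. It was not tested for a wider spread in cardiac fat or for an outlying library. Alternatives were other pseudocounts (0.1 and 5), filters and scalings, floor values taken as missing, fits on fewer libraries, a block, and each library left out.

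The members, gene lists and tests were chosen with earlier results of these data known. Named genes were the 12 largest called changes each way where the higher group averaged 5 FPKM or more, up to 5 called members of each list, up to 4 each way for the difference between trials, and FABP4, PPARG, TBX20, TBX18, PITX1, SS2, CASQ2 and MYH7B. Other genes are said to be named after their values were seen, or stand as examples of a list with no called member. The results of 2 called genes, and of a list that held 1 of them, are not reported here.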

Additional observations from a re-analysis of the deposited data

Results flagged for a closer look

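Among 94 groups of 4 values looked at, 7 held a library set far from the other 3. Chance gives about 5 in 100, so this count is near that rate. FABP4 in cardiac library 1208 was counted both as FPKM and as its share. In cardiac library 1208 FABP4 was low, at 4865 FPKM and 14.0% of the FPKM summed over the 564 genes, and SDK1 was high at 24.6 FPKM. In cardiac library 1209 FZD1 was low at 14.0 FPKM. In abdominal library 1201 IL1RL1 was high at 10.95 FPKM and SEMA3F at 10.2 FPKM. In abdominal library 1202 THBS1 was low at 43.8 FPKM.

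The depot effect differed between the trials, by a test of the difference itself in limma, for 5 genes, given as Fall 12 minus Fall 13 on the log2 scale. It was -2.59 for CXCL12 (adjusted p = 0.0119), -2.46 for TBX18 (adjusted p = 0.0401) and -2.36 for THBS1 (adjusted p = 0.0379). It was 2.002 for COL18A1 (adjusted p = 0.0461) and 2.604 for CHRNA3 (adjusted p = 0.0285). The calls of TBX18, THBS1 and COL18A1 were lost without libraries 1208 and 1209.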

How the results depend on the processing

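Against 55 calls between depots, 17 were made without libraries 1208 and 1209, which leaves fewer samples. Leaving out 1 library at a time gave 40 to 59. Quantile normalization gave 59 calls, of which 29 were higher, so that the share of higher calls went from 63.6% to 49.2%, and without library 1211 it was 50.9%. With no filter it was 70.5% of 78 calls, with 1208 out 72.5% of 40. Upper quartile scaling moved the median of all genes to 0.12 and scaling without FABP4 to 0.13. A second number in the column headers is shared between depots, and nothing says what it marks. Deviations of same-numbered libraries correlated at 0.0935, 0.00882, 0.152 and 0.00795. Libraries 1200 and 1202 correlated best with another number, and the main fit did not take the numbers as pairs. With so few libraries these correlations cannot show whether the numbers mark pairs. In Fall 13 the same-numbered Ross libraries correlated at 0.230, 0.201, 0.247 and -0.0645, and 6 of 7 Illinois pairs were above 0. As a replicate block the number gave 58 calls over 31 libraries, 51 of them shared. With that block the 8 libraries alone gave 17 calls, 16 of them shared. FZD1, CKMT1A, SDK1, UGT8, PI15 and SFRP1, which kept the call without libraries 1208 and 1209, lost it there. Their adjusted p with the block on the 8 libraries ran from 0.055 (FZD1 and CKMT1A) to 0.0787 (SFRP1). The difference between trials, 5 calls, gave 0 with a pseudocount of 5, 15 with no filter, 3 with quantile normalization, 3 with the replicate block, and 0 to 9 with 1 library left out. Under that block the CHRNA3 difference between trials and the THBS1 difference between trials lost the call (adjusted p = 0.0548 for each). The cause of these shifts was not tested. The difference in FABP4 share, 0.474 percentage points, became -0.298 over tested genes, and -1.44 to 5.37 with 1 library left out. FABP4 itself (-0.15) became 0.29 without 1208 and 1209, and -0.31 to 0.29 with 1 library left out. COL18A1 in Fall 12 (-0.14) became 0.062 without 1208 and 1209, and -0.35 to 0.25 with 1 library left out. Of 40 named genes called between depots, 33 lost the call in at least 1 of 23 alternatives, 27 of them without libraries 1208 and 1209. TBX20, ID4, SS2, CHRNA3, IL1RL1, EGR1 and HMGA1 kept it in all that were run. Depth limits the low genes, where a few fragments make up a value.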
